A study of Homo sapiens with 4 samples.

Results

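The nuclear-encoded respiratory chain subunits were examined in ES2 cells, an established human ovarian cancer cell line, after treatment with vehicle or with Liq. Liq, or liquiritigenin, is a flavanone made by plants and served in the study as an agonist of estrogen receptor beta (ERβ). Members were the genes of the count tables whose symbol starts with NDUFA, NDUFB, NDUFC, NDUFS, NDUFV, UQCR, ATP5 or COX4 to COX8, together with SDHB, SDHC, SDHD and CYC1. This gave 95 members among 23228 listed genes, of which 86 were among the 13546 genes with enough counts to test. Both groups were ES2 cells kept without phenol red in RPMI-1640 medium with charcoal-treated serum, and RNA was taken after 24 h. Each group had 2 samples, vehicle replicates 1 and 2 and Liq replicates 1 and 2. The labels do not say whether the 2 samples of a group came from separate cultures, so p-values measure only the spread between these samples, which may be technical. All samples are of 1 cell line at 1 time.

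The respiratory chain sits in the inner mitochondrial membrane. Complexes I and II take electrons from NADH and succinate, complex III passes them to cytochrome c, and complex IV passes them on to oxygen. Complexes I, III and IV pump protons, and complex V, the ATP synthase, lets them flow back to make ATP. Complex II is encoded wholly in the nucleus, whereas the other complexes join many nuclear-encoded subunits to a small core encoded by mitochondrial DNA. Messages from mitochondrial DNA were not analysed here.

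Each sample had between 34573053 and 48933893 reads assigned to genes, so that 3 counts, taken as the floor, correspond to 0.0598 to 0.0844 CPM (counts scaled to a common library size after TMM normalisation). The biological coefficient of variation was 0.0575. Of 8 epithelial markers, 4 had enough counts to test, and EPCAM, CDH1, KRT19 and MUC16 were at or under the floor. KRT7 was higher in Liq, at 266 and 238 CPM in vehicle and 378 and 337 CPM in Liq, and KRT18, at 166 to 204 CPM, and PAX8, at 0.34 to 1.23 CPM, were lower. The epithelial list summed to 495 and 454 CPM in vehicle and to 574 and 529 CPM in Liq. Of 10 markers of other cell types, 3 had enough counts, with CD68 at 66.4 to 77.4 CPM and CDH5 at 44.6 to 52.9 CPM, neither called. The third, LYZ, was lower in Liq, at 0.56 and 0.40 CPM in vehicle and 0.22 and 0.18 CPM in Liq (log2 fold change -1.27, adjusted p = 0.0407). The leukocyte gene PTPRC and the muscle gene DES were below the floor. The summed level of these 10 markers was 128 and 119 CPM in the vehicle samples and 126 and 111 CPM in the Liq samples. The part of either marker list in the results below was not tested.

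At an adjusted p-value under 0.05, 21 of the 86 tested members fell and 1, NDUFAF3, rose, while the other 64 did not pass (quasi-likelihood test of edgeR with 2 samples in each group). Over all 13546 tested genes 11.3% were lower and 12.6% were higher by the same call, against 24.4% of the members lower. The log2 fold change (Liq over vehicle) was below 0 in 76 of the 86 members, or 88.4%, and in 49.0% of all tested genes. In 50 members, or 58.1%, both Liq samples lay below both vehicle samples, against 30.2% of all tested genes. The members' median log2 fold change was -0.14, a change of -9.27%, and the range was -0.70 to 0.41. All tested genes had a median of 0.01, and the 7872 tested genes between 14.8 and 217 CPM, the range that holds most members, had a median of -0.02 with 12.5% of them lower by the call.

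The members together took 8947 and 8516 CPM in the vehicle samples and 7835 and 7785 CPM in the Liq samples. The means were 8731 ± 304 and 7810 ± 35.3 CPM (SD, n = 2), which is a difference of -10.5%. Both Liq samples lay below both vehicle samples. With 2 samples against 2, an exact permutation test cannot give a p-value below 0.3333, so no test of this sum is given. In bulk RNA, fewer cells that hold a message and less of it per cell cannot be told apart. The changes were small. At an adjusted p-value under 0.05 and at least a 1.5-fold change, 1 member passed, ATP5E, which was lower. Among all tested genes 6.45% passed, 2.16% lower and 4.29% higher.

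**Figure D1:**
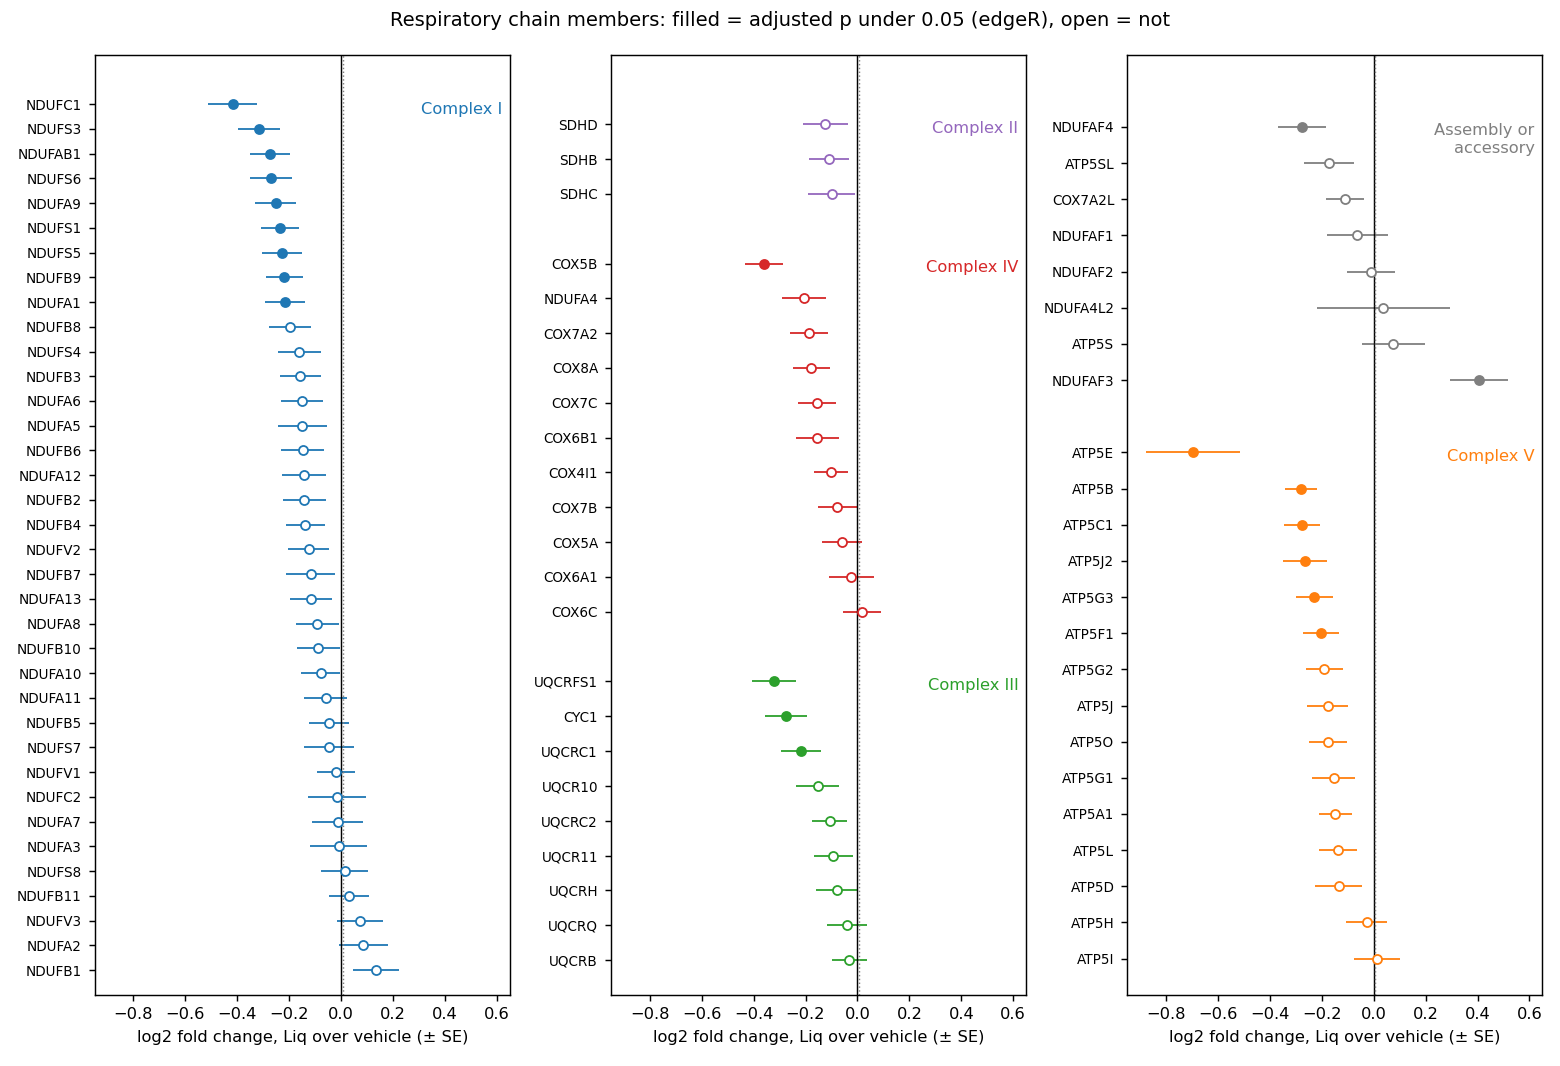
Log2 fold change of Liq over vehicle (horizontal axis, ± SE from edgeR) of the tested members reported by name, by complex, with filled points for an adjusted p under 0.05, and a dotted line at the median of all tested genes, 0.01. Most points lie left of 0, and NDUFAF3 at 0.41 is the filled point on the right.

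Fewer members were called when either vehicle sample was left out, and so were fewer of all tested genes, and the cause was not tested. Without vehicle replicate 1, 5 members were lower and 1 was higher, against 4.42% of all tested genes lower, and without vehicle replicate 2, 6 were lower and 0 were higher, against 4.89%. Without Liq replicate 1 or Liq replicate 2, 26 members were lower in each fit, against 11.5% and 13.2% of all tested genes. The median over the members ranged from -0.18 to -0.09 over these 4 fits, and the number below 0 from 65, without vehicle replicate 1, to 80, without vehicle replicate 2. All 22 called members kept the sign of their change in all 11 alternative fits, and 2 of them, COX5B included, also kept the call in all of these fits.

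The vehicle samples also differed from each other in these genes. The members' median log2 difference between vehicle replicates 1 and 2 was 0.08, with 70 of 86 members higher in replicate 1, and that between Liq replicates 1 and 2 was 0.02, with 48 of 86 higher in replicate 1. Over all tested genes the median difference between the vehicle samples was -0.00069. Across the 86 members, which share their libraries, the difference between the vehicle samples went with the GC content of the transcript (Pearson's r = 0.65, Spearman's rho = 0.63), as did that between the Liq samples (r = 0.55, rho = 0.54). The log2 fold change between the groups followed it less (r = 0.22, rho = 0.17). Against the members' log2 mean CPM, that fold change had r = -0.16 and rho = -0.31, and against transcript length r = -0.11 and rho = -0.19. The 43 members with the higher GC content had a median log2 fold change of -0.12 with 10 members lower, and the 43 with the lower GC content had -0.15 with 11 lower. The part of GC content, level or length in the calls was not tested.

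**Figure D2:**
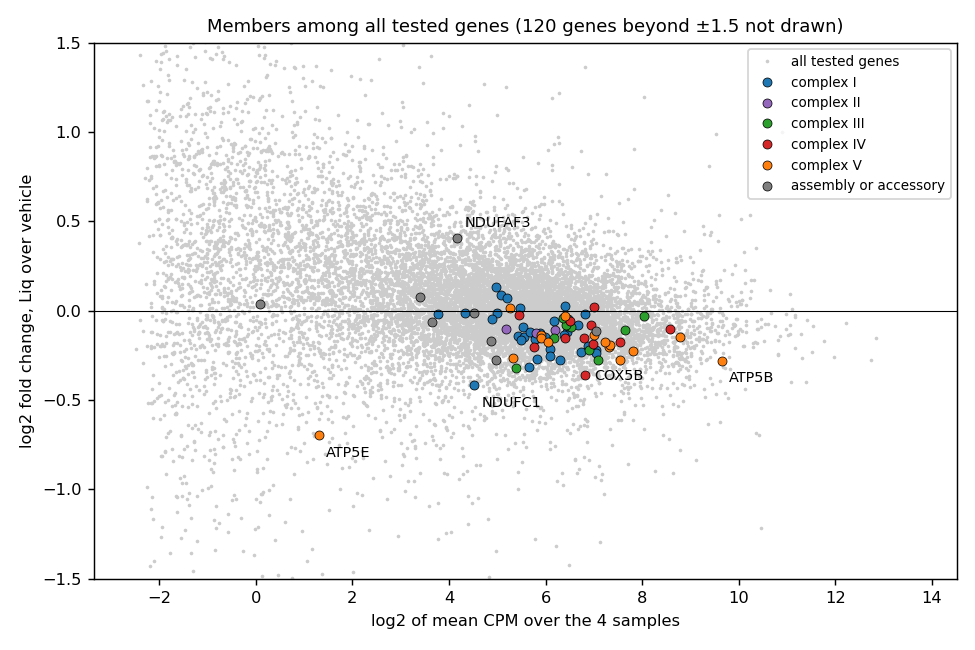
Log2 fold change of Liq over vehicle (vertical axis) against the log2 mean CPM of the 4 samples (horizontal axis), with all tested genes in grey and the members reported by name in the colour of their complex. The 120 genes beyond 1.5 in either direction are not drawn. Most members lie just below 0, and ATP5E, at -0.70, stands apart at a low level.

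The bases before the start sites of the members were also examined. The RefSeq promoter table (GRCh38.p14) held 61 of the 75 tested structural subunits, and windows of 300 bases, from 250 before to 50 after the start, were searched on both strands for 4 motifs. Nuclear respiratory factor 1 is known to bind a core GCATGCGC in many genes of the respiratory chain. This core was in 13 of the 61 promoters, or 21.3%, against 5.65% of the 10390 tested genes with an entry. The ETS motif CCGGAAG was in 19, or 31.1%, against 19.2%. The YY1 motif, searched in its long form around the letters ATGG, was in 4, or 6.56%, against 2.07%, and the antioxidant response core TGACNNNGC was in 10, or 16.4%, against 15.2%. Median log2 fold changes with and without the nuclear respiratory factor 1 core were -0.14 and -0.14, and for ETS -0.12 and -0.15. For YY1 they were -0.19 and -0.14, and for the antioxidant response core -0.14 and -0.14. Of the members with these motifs, in the same order, 3 of 13, 4 of 19, 2 of 4 and 4 of 10 were called lower. Members without a motif were the larger part of the 61 for each of the 4 motifs. Among them 10, 9, 11 and 9 were called lower, and 11.3% of all tested genes were lower. The part of the motifs in the changes was not tested.

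The 250 bases before the start are shown for the most reduced called member of each complex that the table holds, leaving out ATP5E, and for NDUFAF3, the member that rose. They are from RefSeq (GRCh38.p14), with the 4 motifs in capitals, 5′ to 3′ on the strand of the gene. In COX5B (chr2:97645812-97646061, plus strand) the capitals mark the nuclear respiratory factor 1 core and then an ETS motif. In ATP5C1 (chr10:7787927-7788176, plus strand, ATP5F1C in RefSeq) they mark the nuclear respiratory factor 1 core read on both strands, where the matches overlap each other. NDUFC1 (chr4:139302552-139302801, minus strand), UQCRFS1 (chr19:29213152-29213401, minus strand) and NDUFAF3 (chr3:49020202-49020451, plus strand) had none of these letters in the window.
COX5B: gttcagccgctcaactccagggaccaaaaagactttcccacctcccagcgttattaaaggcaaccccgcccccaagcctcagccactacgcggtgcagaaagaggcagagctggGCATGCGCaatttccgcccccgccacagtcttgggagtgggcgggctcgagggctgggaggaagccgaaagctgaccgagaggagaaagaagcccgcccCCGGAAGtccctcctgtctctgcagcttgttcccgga
ATP5C1: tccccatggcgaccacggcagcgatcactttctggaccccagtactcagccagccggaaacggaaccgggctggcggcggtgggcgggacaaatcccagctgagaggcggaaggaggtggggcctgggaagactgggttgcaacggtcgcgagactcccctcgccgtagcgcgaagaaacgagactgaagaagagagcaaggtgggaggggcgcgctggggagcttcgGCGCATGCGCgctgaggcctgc
NDUFC1: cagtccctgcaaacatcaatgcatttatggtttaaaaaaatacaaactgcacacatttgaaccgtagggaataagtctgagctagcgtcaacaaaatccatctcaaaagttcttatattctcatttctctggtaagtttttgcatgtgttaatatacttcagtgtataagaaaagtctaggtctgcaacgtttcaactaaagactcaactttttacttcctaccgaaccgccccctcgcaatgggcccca
UQCRFS1: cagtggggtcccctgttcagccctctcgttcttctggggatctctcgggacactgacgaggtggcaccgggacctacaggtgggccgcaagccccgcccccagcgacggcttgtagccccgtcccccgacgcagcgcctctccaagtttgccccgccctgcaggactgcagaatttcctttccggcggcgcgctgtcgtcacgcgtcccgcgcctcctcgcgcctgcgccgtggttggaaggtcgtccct
NDUFAF3: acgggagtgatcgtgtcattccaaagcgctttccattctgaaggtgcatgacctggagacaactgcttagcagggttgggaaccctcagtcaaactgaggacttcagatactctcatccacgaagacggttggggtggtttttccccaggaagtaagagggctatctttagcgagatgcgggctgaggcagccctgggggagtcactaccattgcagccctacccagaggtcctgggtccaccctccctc

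Complex I, the NADH dehydrogenase, had 37 members, and all were tested. Of these, 10, or 27%, fell, against 11.3% of all tested genes, while 0 rose and 27 did not pass. The median log2 fold change was -0.14, with 32 members, or 86.5%, below 0, against 49.0% of all tested genes. Their summed level was 2688 and 2543 CPM in the vehicle samples and 2376 and 2315 CPM in the Liq samples, a difference of -10.3%.

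NDUFC1 (chromosome 4 from 140188034 to 140223705, GRCh37, minus strand), a small accessory subunit, was at 25.6 and 26.8 CPM in the vehicle samples and at 18.9 and 20.2 CPM in the Liq samples. The groups did not overlap, but members named for a large called change had to meet that condition. The log2 fold change was -0.42 (adjusted p = 0.00206, SE 0.09). NDUFC1 passed in 10 of the 11 alternatives, but not without vehicle replicate 2 (log2 fold change -0.38). C4orf49 (MGARP), which overlaps it on the same strand over more bases than any other gene, had 0 to 3 counts per sample. NAA15, which overlaps it on the other strand, had a log2 fold change of -0.21 (adjusted p = 0.0618). NDUFS3 (chromosome 11 from 47586888 to 47606114, plus strand), a core subunit of the matrix arm, was at 57.6 and 54.2 CPM in vehicle and at 44.8 and 44.9 CPM in Liq. The Liq samples were nearly equal and below both vehicle samples, and the log2 fold change was -0.32 (adjusted p = 0.00574, SE 0.08). NDUFS3 passed in 10 of the 11 alternatives, but not without vehicle replicate 1 (log2 fold change -0.27). Its overlapping neighbours PTPMT1 and KBTBD4 had log2 fold changes of -0.02 and 0.02.

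Further called subunits of complex I were NDUFAB1, NDUFS6, NDUFA9, NDUFS1, NDUFS5, NDUFB9 and NDUFA1, with log2 fold changes from -0.27 to -0.22 and adjusted p-values from 0.00972 to 0.0434. NDUFAB1 is the mitochondrial acyl carrier protein, which also serves fatty acid synthesis, and NDUFS1 carries iron-sulfur clusters. Not every redox subunit passed. NDUFV1, which holds the flavin and the NADH site, had a log2 fold change of -0.02 (adjusted p = 0.871), and NDUFS8, an iron-sulfur subunit, had 0.01 (adjusted p = 0.933). In both genes the samples of the 2 groups overlapped. The subunits above 0 were NDUFS8, NDUFB11, NDUFV3, NDUFA2 and NDUFB1, and none of these 5 passed, with NDUFB1 the highest at 0.13 (adjusted p = 0.292).

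Complex II, the succinate dehydrogenase, had 3 members, and 0 passed the test. SDHB, the iron-sulfur subunit, was at 77.4 and 75.6 CPM in vehicle and at 69.9 and 72.0 CPM in Liq, with a log2 fold change of -0.11 (adjusted p = 0.323). The membrane anchors SDHC and SDHD had log2 fold changes of -0.10 (adjusted p = 0.463) and -0.12 (adjusted p = 0.314). In both anchors Liq replicate 1 was the lowest sample while Liq replicate 2 lay among the vehicle samples, at 32.1 and 37.4 CPM for SDHC against 37.6 and 36.97 CPM in vehicle. The median over the complex moved from -0.11 to -0.01 without Liq replicate 1 and to -0.22 without Liq replicate 2. SDHA, the flavoprotein of the same complex, is outside the symbol rule. It was at 135 and 127 CPM in vehicle and at 114 and 102 CPM in Liq, a log2 fold change of -0.28 (adjusted p = 0.00785, SE 0.08).

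Complex III, the cytochrome c reductase, had 9 members, of which 3, or 33.3%, fell, 0 rose and 6 did not pass. Of all tested genes 11.3% fell. All 9 had a log2 fold change below 0, with a median of -0.11, and the summed level was 1167 and 1107 CPM in vehicle and 1061 and 1027 CPM in Liq, a difference of -8.22%. UQCRFS1 (chromosome 19 from 29696227 to 29704058, minus strand), the Rieske iron-sulfur protein, was at 47.2 and 45.4 CPM in vehicle and at 37.3 and 36.8 CPM in Liq. Its log2 fold change was -0.32 (adjusted p = 0.00648, SE 0.08), and the groups did not overlap. It passed in 9 of the 11 alternatives, but not without vehicle replicate 1 (log2 fold change -0.29) or vehicle replicate 2 (-0.35).

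CYC1 (chromosome 8 from 145149942 to 145152428, plus strand), the heme-bearing cytochrome of complex III, was at 162 and 135 CPM in vehicle and at 128 and 118 CPM in Liq. The vehicle samples were far apart, and the log2 fold change was -0.27 (adjusted p = 0.0158, SE 0.08). Without vehicle replicate 1 it was -0.14 (adjusted p = 0.553), and loess offsets also ended the call (adjusted p = 0.0628). UQCRC1 (chromosome 3 from 48636435 to 48648409, minus strand), a core protein of the matrix side, was at 134 and 121 CPM in vehicle and at 114 and 106 CPM in Liq, with a log2 fold change of -0.22 (adjusted p = 0.04, SE 0.08). UQCRC1 passed in 6 of the 11 alternatives, with adjusted p-values from 0.0777 to 0.53 in the others, and was -0.14 without vehicle replicate 1. UQCRB, a small quinone-binding subunit, was at 261 and 272 CPM in vehicle and at 267 and 255 CPM in Liq, and these values overlapped (log2 fold change -0.03, adjusted p = 0.784). UQCRH has a close copy, UQCRHL, which took more counts than UQCRH itself, so that neither is certain on its own. Their sum was 233 and 222 CPM in vehicle and 212 and 204 CPM in Liq, a difference of -8.76%.

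Complex IV, the cytochrome c oxidase, had 17 members, of which 11 were tested. COX5B fell, which is 9.09% of the 11, against 11.3% of all tested genes, while 0 rose and 10 did not pass. The log2 fold change was below 0 in 10 of the 11, with a median of -0.15, which was -0.08 without vehicle replicate 1 and -0.07 without Liq replicate 2. The summed level was 1540 and 1473 CPM in vehicle and 1386 and 1363 CPM in Liq, a difference of -8.76%. COX5B (chromosome 2 from 98262525 to 98264846, plus strand), a zinc-binding subunit on the matrix side, was at 127 and 125 CPM in vehicle and at 102 and 94.5 CPM in Liq. The Liq samples were both below the vehicle samples, and the log2 fold change was -0.36 (adjusted p = 0.000903, SE 0.07). Its promoter, printed above, holds both the nuclear respiratory factor 1 core and an ETS motif. COX6A1, whose promoter also holds both, was at 46.6 and 41.7 CPM in vehicle and at 43.5 and 43.3 CPM in Liq, with a log2 fold change of -0.02 (adjusted p = 0.873).

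**Figure D3:**
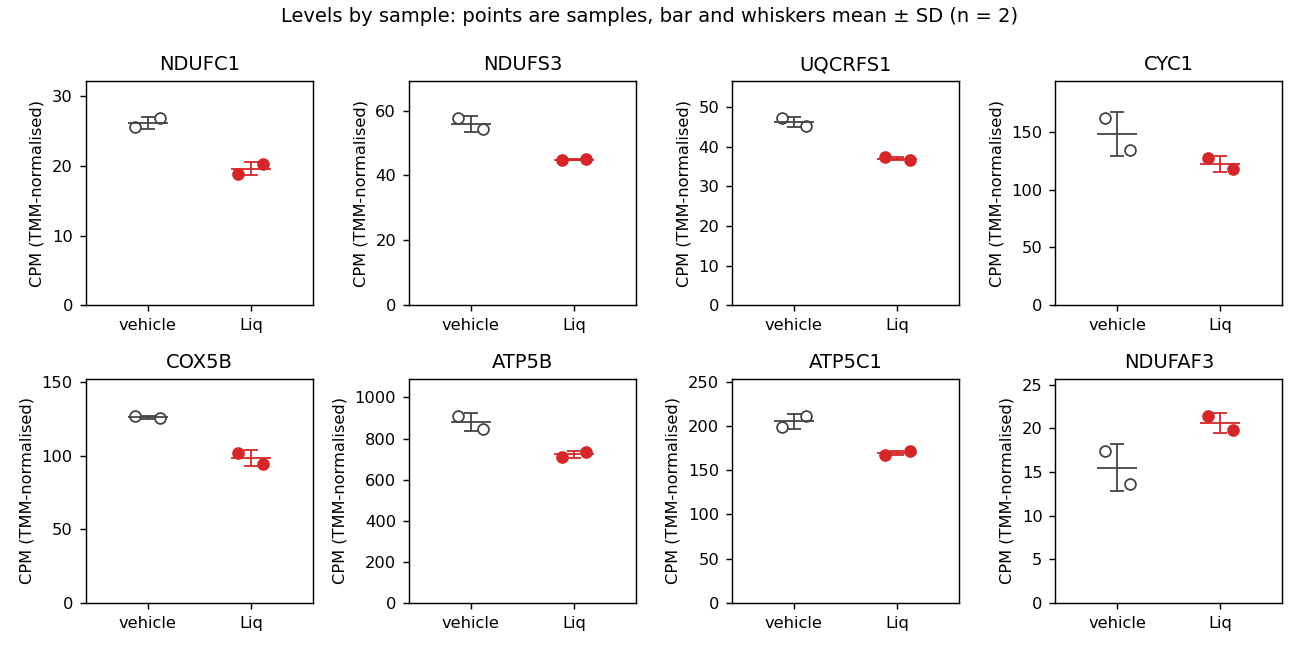
CPM (vertical axes from 0, TMM-normalised) of 8 members in each sample, with points for samples and bars for the mean ± SD (n = 2). The 8 members were picked among called members whose groups did not overlap. By that choice both Liq points lie below both vehicle points in each of the 7 that fell, and above in NDUFAF3.

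Several complex IV subunits exist as tissue isoforms, and ES2 cells held the widely expressed form. COX4I1 was at 402 and 384 CPM in vehicle and at 374 and 358 CPM in Liq (log2 fold change -0.10, adjusted p = 0.264), whereas COX4I2, known from lung, had 0 counts in all 4 samples. COX6A1 was present and the muscle form COX6A2 had 0 counts, and COX7A2 was present and the muscle form COX7A1 had 0 counts. COX6B1 was at 74.7 to 93.2 CPM and COX8A at 173 to 209 CPM, while the testis forms COX6B2 and COX8C had at most 1 and 3 counts in any sample. COX7B2 also had 0 counts in all samples. None of the present isoforms passed the test, with log2 fold changes of -0.15 for COX6B1 (adjusted p = 0.178), -0.19 for COX7A2 (adjusted p = 0.061) and -0.18 for COX8A (adjusted p = 0.0742). NDUFA4, named after complex I but now placed in complex IV, was at 57.9 and 58.0 CPM in vehicle and at 46.9 and 53.5 CPM in Liq (log2 fold change -0.20, adjusted p = 0.0768). Some of these passed with a sample left out, COX6B1 without Liq replicate 1 (adjusted p = 0.0165), and COX8A (adjusted p = 0.0412) and NDUFA4 (adjusted p = 0.00461) without Liq replicate 2. The relative of NDUFA4, NDUFA4L2, was at 1.04 to 1.10 CPM, with a log2 fold change of 0.04 (adjusted p = 0.933).

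Complex V, the ATP synthase, had 15 members, all tested, of which 6, or 40%, fell, 0 rose and 9 did not pass. Of all tested genes 11.3% fell. The median log2 fold change was -0.18, with 14 members, or 93.3%, below 0, against 49.0% of all tested genes. In 12 members, or 80%, both Liq samples lay below both vehicle samples, against 30.2% of all tested genes. The summed level was 2860 and 2719 CPM in vehicle and 2388 and 2443 CPM in Liq, a difference of -13.4%. Of the 5 complexes it had the lowest median and the largest difference in summed level, but differences among complexes were not tested.

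ATP5B (chromosome 12 from 57031959 to 57039768, minus strand), the catalytic beta subunit, was at 909 and 847 CPM in vehicle and at 712 and 736 CPM in Liq. Its log2 fold change was -0.28 (adjusted p = 0.00155, SE 0.06). ATP5B passed in 10 of the 11 alternatives, but not without vehicle replicate 1 (log2 fold change -0.23). Its partner in the catalytic head, ATP5A1, was at 474 and 450 CPM in vehicle and at 416 and 419 CPM in Liq, without overlap, and did not pass (log2 fold change -0.15, adjusted p = 0.0951). ATP5C1 (chromosome 10 from 7830110 to 7849778, plus strand), the gamma subunit that turns inside that head, was at 199 and 211 CPM in vehicle and at 167 and 171 CPM in Liq. Both Liq samples were below both vehicle samples, and the log2 fold change was -0.28 (adjusted p = 0.00492, SE 0.07). ATP5C1 passed in 10 of the 11 alternatives, but not without vehicle replicate 2 (log2 fold change -0.24).

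The ring of c subunits, which turns as protons pass, is encoded by 3 genes with the same mature protein. ATP5G3 was at 248 and 234 CPM in vehicle and at 200.2 and 212 CPM in Liq and fell (log2 fold change -0.23, adjusted p = 0.0178, SE 0.07). ATP5G2 (log2 fold change -0.19, adjusted p = 0.0563) and ATP5G1 (-0.15, adjusted p = 0.186) did not pass, although in both the Liq samples were below the vehicle samples. Without Liq replicate 1, ATP5G2 passed (log2 fold change -0.21) and ATP5G3 did not (-0.19). ATP5G3 also did not pass with loess offsets (adjusted p = 0.114) or without either vehicle replicate, and so passed in 7 of the 11 alternatives. The called members of complex V also included ATP5F1 of the peripheral stalk, with a log2 fold change of -0.20 (adjusted p = 0.0373), and ATP5J2 of the membrane part, with -0.26 (adjusted p = 0.0254). ATP5I, another small membrane subunit, was the member above 0, with a log2 fold change of 0.01 (adjusted p = 0.927).

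ATP5E (chromosome 20 from 57600530 to 57607400, minus strand), the epsilon subunit of the central stalk, had the largest change of all members and is uncertain. The counts were 125 and 115 in vehicle and 65 and 97 in Liq, that is 3.04 and 3.07 CPM against 1.83 and 1.93 CPM, and its log2 fold change was -0.70 (adjusted p = 0.00634, SE 0.18). The tables also list the readthrough gene SLMO2-ATP5E, with 0 counts in all samples, and reads that overlap more than 1 listed gene are left out by the counting. A processed copy on chromosome 13, ATP5EP2, was at 50.5 to 59.1 CPM, and ATP5E made up 3.14% to 5.45% of the sum of both. That sum was 62.1 and 56.4 CPM in vehicle and 58.3 and 52.4 CPM in Liq, a difference of -6.59%, and the samples overlapped. Without ATP5E, an alternative chosen after seeing the data, complex V had 5 lower of 14 with a median of -0.18, and 0 members passed at 1.5-fold.

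Readthrough genes touch other members as well. ATP5J2-PTCD1 and NDUFC2-KCTD14 are listed with 0 counts in all samples and cover ATP5J2 and NDUFC2, so that these members may be undercounted in every sample. Of the 86 tested members, 27 overlap another listed protein-coding gene in the GENCODE annotation of GRCh37, 21 of them only on the opposite strand, and 8 of the 22 called members are among the 27. The strand setting of the counting is not given in the sources used here, so reads of such pairs may not be told apart. The remaining names the rule took in are ATP5L2, with 0 to 2 counts, and COX4NB, which is a subunit of a membrane protein insertion complex and not of complex IV, with a log2 fold change of -0.18 (adjusted p = 0.114).

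Of the 8 assembly factors and accessory members, 1, or 12.5%, fell, near the 11.3% of all tested genes, while 1 rose and 6 did not pass. Their median log2 fold change was -0.04, with 5 below 0, against -0.14 over the structural subunits, a difference that was not tested. NDUFAF3 and NDUFAF4, which are known to act together in the early assembly of complex I, were the called ones and lay on opposite sides. NDUFAF3 (chromosome 3 from 49057892 to 49060928, plus strand) was at 17.4 and 13.6 CPM in vehicle and at 21.4 and 19.8 CPM in Liq. It rose with a log2 fold change of 0.41 (adjusted p = 0.00824, SE 0.11) but did not pass without vehicle replicate 2, and DALRD3, which overlaps it on the other strand, had a log2 fold change of 0.15 (adjusted p = 0.318).

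NDUFAF4 (chromosome 6 from 97337191 to 97345767, minus strand) was at 33.5 and 35.6 CPM in vehicle and at 26.9 and 30.1 CPM in Liq. It fell, with a log2 fold change of -0.28 (adjusted p = 0.0301, SE 0.09). NDUFAF4 passed in 7 of the 11 alternatives. It did not pass with upper-quartile scaling, nor without vehicle replicate 1, vehicle replicate 2 or Liq replicate 1. Its log2 fold change was -0.36 to -0.20 with a sample left out. COX7A2L, which helps to join complexes III and IV into larger assemblies, was at 136 and 137 CPM in vehicle and at 122 and 131 CPM in Liq (log2 fold change -0.11, adjusted p = 0.283). The other 5 lay between -0.17 and 0.08, and none passed.

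Ordered by function rather than by complex, the 14 catalytic and redox subunits had 6 lower, 0 higher and 8 not called. The share lower was 42.9%, against 26.7% of all tested structural subunits and 11.3% of all tested genes. The median log2 fold change was -0.14, the same as over the structural subunits. The lower ones included NDUFS1, CYC1, UQCRFS1, ATP5B and NDUFS3, which is on the list as a core subunit. Their list summed to 2428 and 2278 CPM in vehicle and to 1997 and 2025 CPM in Liq, a difference of -14.5%, against -10.7% over the structural subunits. ATP5B alone gave 909 and 847 CPM of this sum in vehicle and 712 and 736 CPM in Liq.

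Levels of different genes were compared as CPM per kilobase of transcript, with the median length of the annotated protein-coding transcripts of each gene, which is not the authors' annotation and can change the order. On this scale the medians over tested subunits in vehicle were 85.6 for complex I, 67.7 for complex II, 126 for complex III, 186 for complex IV and 138 for complex V. In Liq they were 75.6, 62.8, 119, 167 and 128, so the order of the complexes was the same. The highest subunit was NDUFS5 in complex I at 220.5, SDHC in complex II at 81.1, UQCRB in complex III at 413, COX4I1 in complex IV at 515 and ATP5B in complex V at 1026 (vehicle means). NDUFS5, an accessory subunit of complex I, was at 119 and 109.7 CPM in vehicle and at 101 and 94.6 CPM in Liq. It fell, with a log2 fold change of -0.23 (adjusted p = 0.0298, SE 0.08). It did not pass with upper-quartile scaling (adjusted p = 0.059) or loess offsets (adjusted p = 0.0967). It also did not pass without vehicle replicate 1, vehicle replicate 2 or Liq replicate 2, and so passed in 6 of the 11 alternatives. With a sample left out its log2 fold change was -0.29 to -0.17.

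Other genes of the mitochondrion were set beside the members, with the same call of 11.3% lower and 12.6% higher over all tested genes. Of 22 further genes of the chain, among them cytochrome c and the coenzyme Q pathway, 4 fell and 0 rose, with a median of -0.08. The called ones were C14orf2, a small ATP synthase subunit (log2 fold change -0.31, adjusted p = 0.0049), SDHA, COQ3 and COQ10B. Of 34 other assembly factors, 3 fell and 2 rose, with a median of -0.01. COX10, which makes the heme of complex IV, had -0.46 (adjusted p = 0.0024), SURF1, a complex IV assembly factor, had 0.34 (adjusted p = 0.0128) and UQCC, a complex III assembly factor, had -0.26 (adjusted p = 0.015).

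Of 15 tested regulators of mitochondrial biogenesis, 3 fell and 0 rose, with a median of -0.06. TFB2M, a mitochondrial transcription factor, had -0.37 (adjusted p = 0.00208), the nuclear receptor ESRRA had -0.32 (adjusted p = 0.00873) and TFAM, which packages and transcribes mitochondrial DNA, had -0.22 (adjusted p = 0.0461). Of 20 genes of the citric acid cycle and pyruvate entry, 5 fell and 0 rose, with a median of -0.15, led by PDHB of pyruvate dehydrogenase (-0.26, adjusted p = 0.0202), IDH3G (-0.28, adjusted p = 0.0246) and IDH3A (-0.22, adjusted p = 0.0367), both of isocitrate dehydrogenase. Of 75 tested mitochondrial ribosomal proteins, 17 fell and 0 rose, with a median of -0.15 and 69 below 0.

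The cytosolic ribosomal proteins, another set of short and abundant messages, had 11 lower and 2 higher of 78 tested, with a median of -0.08 and 69 below 0. The cytosolic list had 14.1% lower, near the 11.3% of all tested genes, and the mitochondrial list 22.7%. Below 0 were 88.5% of the cytosolic and 92% of the mitochondrial list, against 88.4% of the members and 49.0% of all tested genes. Both Liq samples lay below both vehicle samples in 42.3% and 69.3%, against 58.1% of the members and 30.2% of all tested genes. In the cytosolic list the vehicle samples differed from each other by a median of 0.08 and the Liq samples by 0.05, and in the mitochondrial list by 0.03 and 0.003. Whether the members moved more than either list was not tested.

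**Figure D4:**
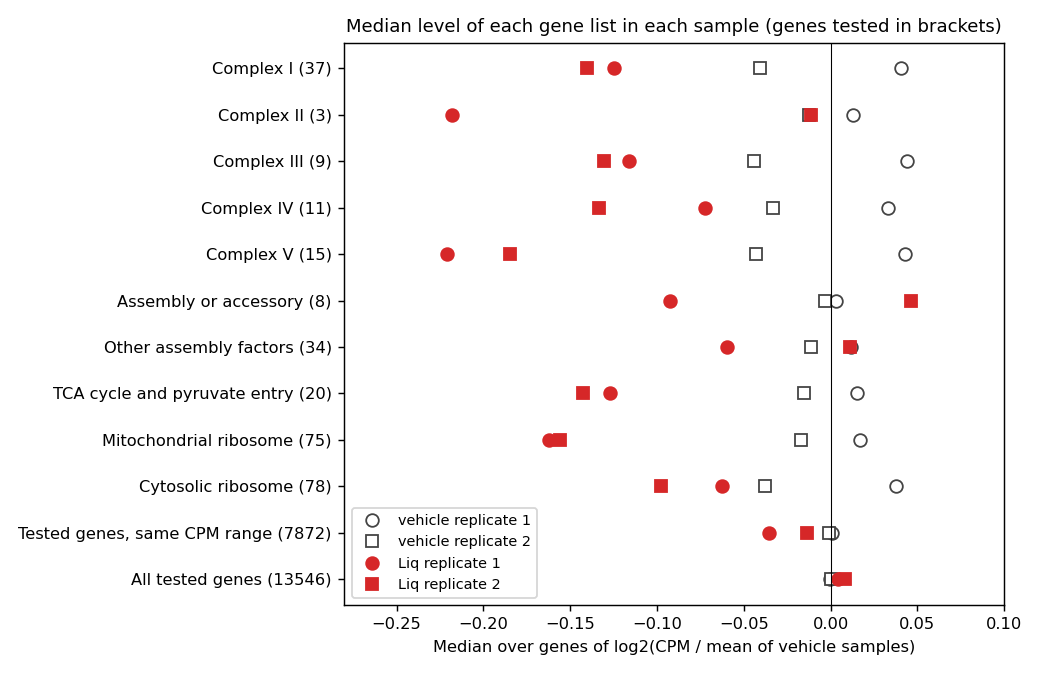
Median over the genes of each list of log2(CPM / mean of the vehicle samples) (horizontal axis), with 1 symbol per sample and the number of genes tested in brackets. In complexes I, III, IV and V both Liq samples lie left of both vehicle samples. The same holds for the citric acid cycle list and both ribosome lists. It also holds for the tested genes of the same CPM range, with Liq medians of -0.036 and -0.013. The medians of all tested genes lie within 0.01 of 0.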

How the data were processed

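Total RNA of the 4 samples was sequenced from TruSeq libraries as single-end reads on an Illumina HiSeq. The authors made fastq files with bcl2fastq 2.17.1.14, aligned reads to hg19 with TopHat2 2.0.8b and counted them per gene with HTSeq (version not given in the sources used here), and deposited raw counts, which are not normalized, filtered or pooled. HTSeq drops reads that align to several places or overlap several genes, which lowers the counts of genes with copies. Closing lines that tally such reads (35.63% to 36.23% not unique, 0.54% to 0.56% ambiguous) were left out of library sizes and tests.

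Groups were taken from the labels. Counts were fitted in R 4.3.3 with edgeR 4.0.16 (filterByExpr, minimum count 10 and total 15, TMM, glmQLFit and glmQLFTest, no replicate block), with Benjamini-Hochberg adjustment over 13546 genes. The SE is the log2 fold change divided by the square root of F. No list was tested. Positions are from the GENCODE annotation of GRCh37, and 95.2% of tested symbols matched it. Samples of 1 group differed by more than sampling noise (chi-square per degree of freedom 6.56 and 11.6, against 60.9 to 74.6 between groups), so each counted once.

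The members and gene lists were chosen with earlier results of these data known. Genes named are the members called at 1.5-fold, up to 3 called members of each complex and of the assembly or accessory members with the largest change and no overlap, the highest subunit per length of each complex, isoform sets, catalytic subunits by range, and from each related list at most 3 genes by p-value; others were named after their values were seen, to complete a count. A gene that these rules select is not reported here by name. Alternatives were DESeq2's size factors, upper-quartile scaling, loess offsets along expression (span 0.3), no filter, the Wald test of DESeq2 1.42.0, a minimum of 10 counts in every sample, the replicate block, each sample left out, and structural subunits only.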

Additional observations from a re-analysis of the deposited data

How the results depend on the processing

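Loess offsets along expression gave 14 called members, 13 of them lower, and medians of -0.047 in complex III, -0.10 in complex IV and -0.13 in complex V, and 9.99% of all genes were then lower. Leaving out each sample in turn gave 6 to 27 called members, 5 to 26 lower, 0 to 1 higher and 1 to 2 at 1.5-fold. The median was then -0.18 to -0.094 over the members, -0.17 to -0.091 in complex I, -0.22 to -0.012 in complex II, -0.15 to -0.079 in complex III, -0.18 to -0.073 in complex IV and -0.24 to -0.13 in complex V. The lone sample of a group was assumed to vary like the others. With the DESeq2 Wald test or without ATP5E, 0 members passed at 1.5-fold, and with structural subunits only 0 were higher. The deviations of same-numbered samples had a correlation of 0.0483 over all tested genes, and no label ties the numbers to a shared culture or day, so the block was not taken as a pairing. Across the 86 members, however, the differences between replicates 1 and 2 in the 2 groups went together (r = 0.51, rho = 0.53). With that number as a block, 39 members were called, 38 of them lower, against 18.3% of all genes, and COX6B1, COX7A2, COX8A, NDUFA4 and ATP5G2 passed (adjusted p from 0.0055 to 0.025). The number of members below 0, 76 as reported, was 69 with upper-quartile scaling and 65 to 80 with a sample left out. Among the genes followed singly, directions turned in SDHC (0.0031 without Liq replicate 1), UQCRB (0.051 with loess offsets, -0.067 to 0.0036 with a sample left out), COX6A1 (0.0041 with upper-quartile scaling, up to 0.059 without vehicle replicate 1) and NDUFA4L2 (-0.17 with loess offsets, -0.0055 to 0.069 with a sample left out), none of which was called. The cause of these differences was not tested. Under upper-quartile scaling the median of all genes was 0.03 and 15 members were lower. Members minus all genes had a median of -0.15, and of -0.11 with loess offsets. The smallest called change was that of ATP5F1, -0.20 on the log2 scale, which is larger than the members' median.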

Other observations

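The mitochondrial ribosome held some of the larger decreases beside the respiratory chain. MRPL15 of the large subunit was at 142 and 140.1 CPM in vehicle and at 100.2 and 111 CPM in Liq, a log2 fold change of -0.42 (adjusted p = 0.000182, SE 0.07). MRPL27 had -0.43 (adjusted p = 0.000581) and MRPS18B, of the small subunit, had -0.34 (adjusted p = 0.00139). In 52 of the 75 tested genes both Liq samples lay below both vehicle samples, against 30.2% of all tested genes.

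In the cytosolic ribosome RPL14 was at 317 and 299 CPM in vehicle and at 409 and 414 CPM in Liq and rose (log2 fold change 0.42, adjusted p = 3.54e-05, SE 0.07), as did RPS27L, a p53-responsive relative of RPS27 (0.42, adjusted p = 0.000188). RPL35 fell, with a log2 fold change of -0.26 (adjusted p = 0.00318). These are edgeR values with n = 2 per group.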
